A study of Mus musculus with 4 samples.

Results

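The genes described here are the VEGF ligands, their receptors and a set of vessel genes, 10 genes of the 18702 listed in each deposited table, chosen by symbol: Vegfa, Vegfb and Vegfc, the receptor genes Flt1, Kdr and Flt4, and Pecam1, Cdh5, Tek and Angpt2. Their levels were compared in RNA from the eyes of C57BL/6 mouse embryos, in 2 knockout (KO) libraries, labelled as homozygous for loss of Anp32b, and 2 wild-type (WT) libraries. The series asks how eye development and PAX6 depend on ANP32B, a nuclear protein that binds histones. No source used here gives the embryonic stage, the extent of the deletion or how many embryos went into a library. No label says whether the libraries within a group stem from different embryos, so each p-value reflects only the variation among these libraries, part of which may be technical.

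VEGF ligands are secreted proteins that bind receptor tyrosine kinases on endothelial cells and drive their division, survival and migration. In the developing eye the vessels of the choroid and the transient hyaloid vessels behind the lens grow under VEGF-A. Kdr, which encodes the main signalling receptor VEGFR2, is also known from progenitor cells of the embryonic mouse retina, whereas Pecam1, Cdh5 and Tek are used as markers of vessels.

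Of the 10 genes 9 rose in the KO eyes and 1, Kdr, fell. All 10 averaged at least 1 FPKM (fragments per kilobase of transcript, scaled to the depth of the library) and so entered the test, a limma fit of log2(FPKM + 1) over 13887 genes with a Benjamini-Hochberg adjusted p under 0.05. Of all genes tested, 33.5% were called higher, 21.1% lower and 54.6% in either direction, so that calls were common in these libraries. The median log2 fold change was 0.66 over the 10 genes and 0.04 over all genes. In all 10 genes the KO and WT libraries did not overlap, which held for 77.9% of all genes, with the KO libraries above in 45.6% and below in 32.4%. The split of calls depends on how libraries are scaled. Among called genes 61.3% were higher with FPKM, 80.6% with the deposited TPM values, and 44.9% with FPKM rescaled without crystallin and erythroid genes.

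**Figure D1:**
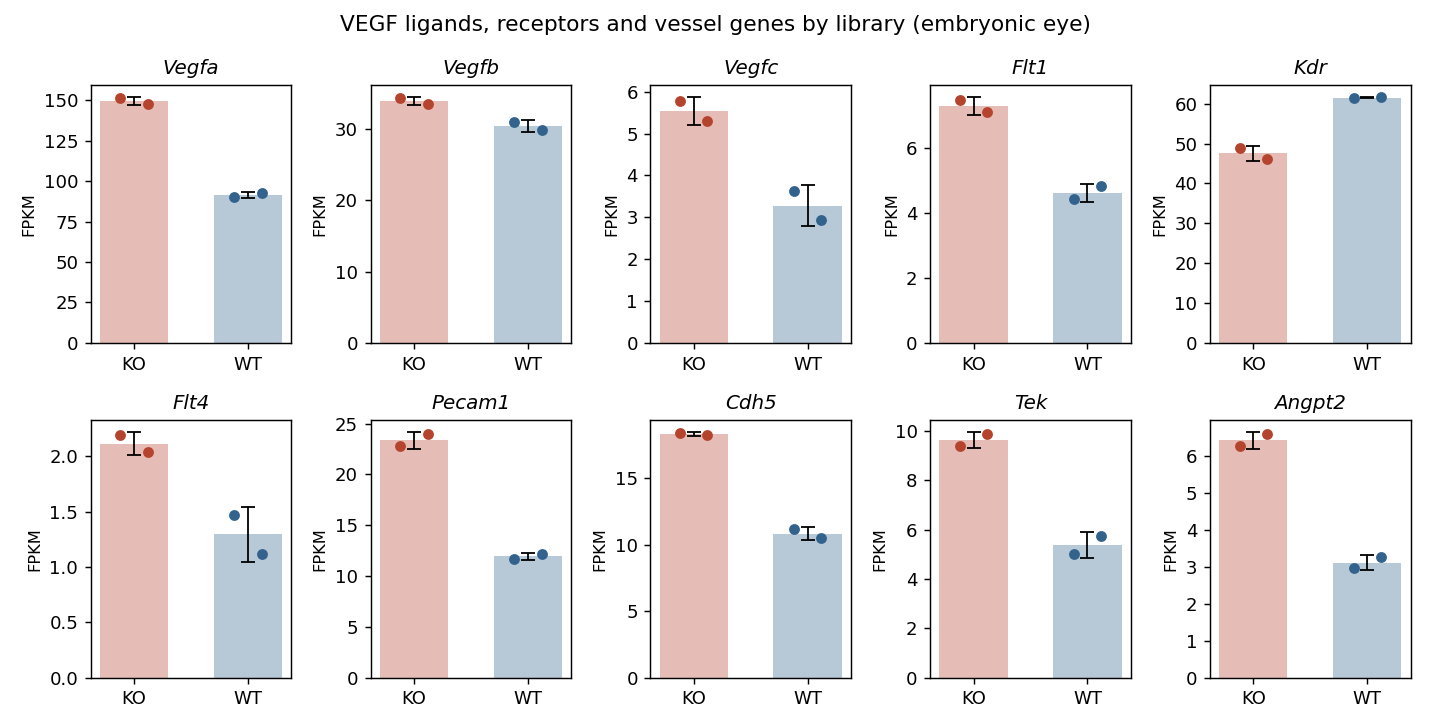
Level in FPKM (y axis, linear, from 0) of each of the 10 genes in the KO and WT libraries (x axis); points are libraries, bars are means and error bars are SDs (n = 2 each). Both KO libraries lie above both WT libraries in 9 genes and below them in Kdr.

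The ligand gene Vegfa was the most abundant of the 10 in both groups. Vegfa (Entrez 22339, GRCm38 chromosome 17, positions 46016993 to 46032369, minus strand) encodes VEGF-A, the principal driver of vessel growth. Its level was 151.25 and 147.89 FPKM in the KO libraries, against 90.31 and 92.88 FPKM in the WT libraries. The KO mean was 1.63 times the WT mean, which gives a log2 fold change of 0.70 (SE 0.03, limma adjusted p = 4.86e-06). The deposited values are sums over a gene, so the VEGF-A isoforms that arise by splicing are not resolved.

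Vegfb (Entrez 22340, chromosome 19, positions 6982473 to 6987651, minus strand) encodes a ligand of VEGFR1 linked to the heart and to lipid uptake. It had 34.27 and 33.53 FPKM in the KO libraries and 31.00 and 29.83 FPKM in the WT libraries. The groups did not overlap, but the change was only 0.15 on the log2 scale (SE 0.04, limma adjusted p = 0.0103). The call was lost with FPKM rescaled without crystallin and erythroid genes (0.07, adjusted p = 0.162), without KO replicate 1 (adjusted p = 0.0822), without KO replicate 2 (adjusted p = 0.051) and without WT replicate 2 (adjusted p = 0.0585). Across all 11 alternatives its adjusted p was at most 0.162.

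Vegfc (Entrez 22341, chromosome 8, positions 54077606 to 54187096, plus strand) encodes the ligand of VEGFR3 that drives growth of lymphatic vessels. Its level was 5.77 and 5.30 FPKM in the KO libraries, against 3.63 and 2.93 FPKM in the WT libraries. Both KO values exceeded both WT values, with a log2 fold change of 0.61 (SE 0.09, limma adjusted p = 0.0014). At an estimated depth of 17760000 to 17980000 fragments per library and for the longest transcript, the lowest of these values rests on about 129 fragments, a counting error of 8.8%.

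The remaining ligand genes of the family rose as well. Vegfd, whose product also binds VEGFR3, averaged 3.18 ± 0.226 FPKM in KO and 1.36 ± 0.134 FPKM in WT (SD, n = 2 each), a log2 fold change of 0.82 (limma adjusted p = 0.00029). Pgf, the gene of placental growth factor, a ligand of VEGFR1, averaged 11.1 ± 0.573 FPKM in KO and 8.93 ± 0.134 FPKM in WT, a log2 fold change of 0.28 (limma adjusted p = 0.00383). Among the 5 ligand genes the changes of Vegfb and Pgf were thus the smallest.

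Kdr was the exception among the receptors and among all 10 genes. Kdr (Entrez 16542, chromosome 5, positions 75932827 to 75978458, minus strand) stood at 48.91 and 46.21 FPKM in the KO libraries, against 61.49 and 61.60 FPKM in the WT libraries. Both KO libraries were lower, at 77.3% of the WT mean, with a log2 fold change of −0.37 (SE 0.04, 95% interval −0.45 to −0.28, limma adjusted p = 0.000188). Kdr was the second most abundant of the 10 genes in both groups, and its values rest on about 4862 to 6561 fragments per library. It was called lower under all 11 alternatives, with log2 fold changes between −0.45 and −0.25.

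Flt1 (Entrez 14254, chromosome 5, positions 147561604 to 147726011, minus strand) encodes VEGFR1, which binds VEGF-A tightly, signals weakly and, in its soluble form, acts as a trap. It had 7.50 and 7.11 FPKM in the KO libraries and 4.43 and 4.83 FPKM in the WT libraries. Both KO libraries were higher, with a log2 fold change of 0.56 (SE 0.06, limma adjusted p = 0.000379), and the soluble and membrane forms are not resolved. Flt4 (Entrez 14257, chromosome 11, positions 49609263 to 49652739, plus strand) encodes VEGFR3, the receptor of lymphatic endothelium and of sprouting vessels. It had 2.19 and 2.04 FPKM in the KO libraries and 1.47 and 1.12 FPKM in the WT libraries, the lowest levels of the 10 genes. The KO libraries were higher without overlap, with a log2 fold change of 0.44 (SE 0.10, limma adjusted p = 0.0101). The call of Flt4 was lost without KO replicate 1 (adjusted p = 0.0759), without KO replicate 2 (adjusted p = 0.0519) and without WT replicate 2 (adjusted p = 0.0507). Over the 10 alternatives in which Flt4 was tested the adjusted p was at most 0.0759. Its fold change depends on the pseudocount, 0.68 with a pseudocount of 0.1, since low levels are compressed when 1 is added.

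The co-receptor genes rose together. Nrp1, whose product neuropilin-1 binds VEGF-A and presents it to VEGFR2, averaged 26.7 ± 0.148 FPKM in KO and 15.8 ± 0.113 FPKM in WT (log2 fold change 0.72, limma adjusted p = 8.82e-06). Nrp2, which pairs with VEGFR3, averaged 11.7 ± 0.693 FPKM in KO and 7.05 ± 0.304 FPKM in WT (0.66, limma adjusted p = 0.000126). Both neuropilins also serve as semaphorin receptors on axons, and the files do not separate the cells that express them.

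The upstream sequences of the 3 VEGF receptor genes and of Tek are shown because these kinase genes, all active in endothelium, moved in different directions in the same libraries. They are the 250 bases before the RefSeq transcription start in GRCm38.p6, 5′ to 3′ on the strand of the gene, with capitals marking GGAA or its complement TTCC, the core that ETS factors bind. Kdr, which fell, lies at chr5:75978456-75978705 (minus strand), while of the genes that rose Flt1 lies at chr5:147726012-147726261 (minus strand), Flt4 at chr11:49609429-49609678 (plus strand) and Tek at chr4:94739039-94739288 (plus strand).
Kdr: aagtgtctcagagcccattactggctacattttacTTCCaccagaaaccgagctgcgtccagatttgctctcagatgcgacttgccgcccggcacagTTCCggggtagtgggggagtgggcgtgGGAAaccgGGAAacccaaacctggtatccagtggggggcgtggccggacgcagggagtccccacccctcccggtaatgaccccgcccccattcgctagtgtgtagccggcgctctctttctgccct
Flt1: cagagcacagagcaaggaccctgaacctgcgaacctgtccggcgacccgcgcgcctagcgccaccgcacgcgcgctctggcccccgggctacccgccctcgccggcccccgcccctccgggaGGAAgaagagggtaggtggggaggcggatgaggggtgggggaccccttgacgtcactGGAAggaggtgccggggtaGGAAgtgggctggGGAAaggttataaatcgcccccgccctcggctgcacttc
Flt4: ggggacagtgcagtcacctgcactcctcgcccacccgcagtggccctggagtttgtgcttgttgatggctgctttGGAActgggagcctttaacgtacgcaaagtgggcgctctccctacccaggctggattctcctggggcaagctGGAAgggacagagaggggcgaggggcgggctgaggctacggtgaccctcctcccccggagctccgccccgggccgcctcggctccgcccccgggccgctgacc
Tek: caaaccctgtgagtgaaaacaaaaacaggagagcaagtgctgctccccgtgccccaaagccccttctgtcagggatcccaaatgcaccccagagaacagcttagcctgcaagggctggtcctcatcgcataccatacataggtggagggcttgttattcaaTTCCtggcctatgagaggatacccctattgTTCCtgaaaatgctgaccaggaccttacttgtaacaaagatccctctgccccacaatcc
The core GGAA, read on both strands, occurred 4 times upstream of Kdr, 4 times upstream of Flt1, and 2 times upstream of each of Flt4 and Tek. It is short and was found in 93.4% of 32544 RefSeq windows of the same length, with a median of 3 matches, so such counts are common. TATAAA was found upstream of Flt1, 31 bases before the start, and not upstream of Kdr, Flt4 or Tek, against 12.3% of all windows. The GC box GGGCGG occurred 2 times for Kdr, 3 times each for Flt1 and Flt4 and not for Tek, and 33.0% of all windows held it. ACGTG, the core of the hypoxia response element, was absent from these 4 windows and present in 16.6% of all windows. None of these motifs contains another. The share of G and C was 61.6% for Kdr, 70.4% for Flt1, 68.4% for Flt4 and 51.2% for Tek, and the median of all windows was 52.4%. The Flt4 window and the last bases of the Kdr window lie inside the gene positions given above. Those positions come from another annotation (GENCODE), whose starts for these genes differ from the RefSeq starts used here. The table of promoters held 7 of the 10 genes, and Pecam1, Cdh5 and Angpt2 had no entry.

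The endothelial adhesion genes Pecam1 and Cdh5 both rose. Pecam1 (Entrez 18613, chromosome 11, positions 106654217 to 106750628, minus strand) encodes CD31, an adhesion protein of endothelial cells that platelets and some leukocytes also carry. It had 22.78 and 23.93 FPKM in the KO libraries and 11.71 and 12.14 FPKM in the WT libraries. The KO mean was 1.96 times the WT mean, with a log2 fold change of 0.91 (SE 0.04, limma adjusted p = 7.93e-06), the largest of the 10 on this scale. Cdh5 (Entrez 12562, chromosome 8, positions 104101625 to 104144511, plus strand) encodes VE-cadherin, the cadherin of endothelial junctions. It had 18.45 and 18.24 FPKM in the KO libraries and 11.18 and 10.49 FPKM in the WT libraries. All KO values were again above all WT values, with a log2 fold change of 0.71 (SE 0.05, limma adjusted p = 2.89e-05). In whole tissue, more cells of a type and more RNA per cell cannot be told apart.

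The angiopoietin and TIE genes rose too. Tek (Entrez 21687, chromosome 4, positions 94739289 to 94874976, plus strand) encodes TIE2, the angiopoietin receptor that steadies mature vessels. Its level was 9.41 and 9.87 FPKM in the KO libraries, against 5.02 and 5.75 FPKM in the WT libraries, a log2 fold change of 0.74 (SE 0.07, limma adjusted p = 0.000152). The groups were well apart in Tek. Angpt2 (Entrez 11601, chromosome 8, positions 18690263 to 18741562, minus strand) encodes angiopoietin-2, a context-dependent antagonist of TIE2 released by activated endothelium. It had 6.25 and 6.57 FPKM in the KO libraries and 2.97 and 3.25 FPKM in the WT libraries. The KO mean was 2.06 times the WT mean, with a log2 fold change of 0.85 (SE 0.07, limma adjusted p = 7.08e-05).

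Of the other 4 genes of this system, 3 were tested and all 3 rose. Tie1, the TIE2 partner receptor, averaged 13.0 ± 0.905 FPKM in KO and 7.93 ± 0.247 FPKM in WT (log2 fold change 0.65, limma adjusted p = 0.000128). Ptprb, a phosphatase that restrains TIE2, averaged 2.59 ± 0.141 FPKM in KO and 1.73 ± 0.0424 FPKM in WT (0.39, limma adjusted p = 0.00569). Angpt1, the activating ligand of TIE2, averaged 5.43 ± 0.608 FPKM in KO and 4.08 ± 0.163 FPKM in WT (0.34, limma adjusted p = 0.0109), a call lost without KO replicate 2 (adjusted p = 0.073) and without WT replicate 2 (adjusted p = 0.074). Angpt4, below the level tested, was listed at 1.51 and 1.33 FPKM in the KO libraries and 0.50 and 0.53 FPKM in the WT libraries. The ratio of Angpt2 to Angpt1 was 1.25 and 1.12 in the KO libraries, against 0.709 and 0.821 in the WT libraries. The antagonist was therefore listed above the agonist in the KO libraries and below it in the WT libraries, on a scale per length.

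**Figure D2:**
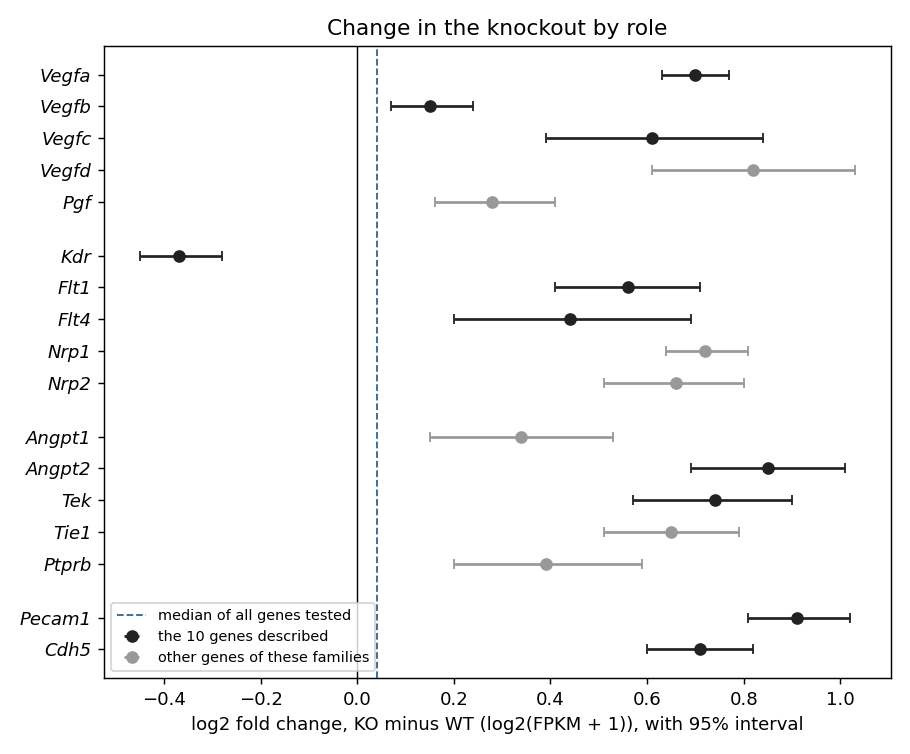
Log2 fold change of log2(FPKM + 1), KO minus WT (x axis), with its 95% interval from the limma fit, for VEGF ligands, receptors, the angiopoietin and TIE genes and the adhesion genes Pecam1 and Cdh5 (y axis); black points are the 10 genes described, grey points other genes of these families, and the dashed line is the median of all genes tested, 0.04. Of these 17 genes, only Kdr lies left of 0, at −0.37.

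The order of levels, per length in FPKM, was nearly the same in both groups. In the KO libraries it ran from Vegfa (mean 149.6) through Kdr (47.6), Vegfb (33.9), Pecam1 (23.4), Cdh5 (18.3), Tek (9.64), Flt1 (7.30), Angpt2 (6.41) and Vegfc (5.54) to Flt4 (2.12), and no neighbours in this order overlapped. In the WT libraries Vegfc (3.28) stood before Angpt2 (3.11), and the libraries of these 2 genes overlapped, so their order there was not resolved. All other neighbours in the WT order were apart.

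Ratios within a library do not depend on how libraries are scaled, and they set Kdr against the vessel genes directly. The level of Kdr relative to the geometric mean of Pecam1, Cdh5 and Tek was 3.09 and 2.84 in the KO libraries, against 7.07 and 6.83 in the WT libraries. The ratio was thus lower in both KO libraries, by 1.23 on the log2 scale. The two-sided exact permutation test over libraries gave p = 0.333, the smallest value that 2 against 2 libraries allow, so this test cannot pass 0.05. The difference ran from −1.29 to −1.01 over the 7 alternatives, which took 1 library out in turn, added a pseudocount, or set Kdr against Cdh5 alone or 20 endothelial genes. Kdr to Cdh5 was 2.65 and 2.53 in the KO libraries, against 5.50 and 5.87 in the WT libraries. Kdr to Flt1, with all forms of Flt1 counted together, was 6.52 and 6.50 in the KO libraries, against 13.9 and 12.8 in the WT libraries.

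The ratio of the ligand gene Vegfa to Cdh5 overlapped between the groups, whereas its ratio to Kdr did not. Vegfa to Cdh5 was 8.20 and 8.11 in the KO libraries, inside the WT libraries at 8.08 and 8.85. Vegfa to Kdr was 3.09 and 3.20 in the KO libraries, against 1.47 and 1.51 in the WT libraries. The groups also overlapped for Tek to Cdh5 (0.510 and 0.541 in KO, 0.449 and 0.548 in WT), for Vegfc to Cdh5 (0.313 and 0.291 in KO, 0.325 and 0.279 in WT) and for Flt4 to Cdh5 (0.119 and 0.112 in KO, 0.131 and 0.107 in WT). They did not overlap for Pecam1 to Cdh5 (1.23 and 1.31 in KO, 1.05 and 1.16 in WT) or Angpt2 to Cdh5 (0.339 and 0.360 in KO, 0.266 and 0.310 in WT), both higher in KO. Vegfb to Cdh5 was lower in KO, at 1.86 and 1.84, than in WT, at 2.77 and 2.84. The exact permutation test cannot pass 0.05 for any of these ratios with 2 libraries in each group, no other test was run on them, and an overlap does not show that a ratio was equal.

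**Figure D3:**
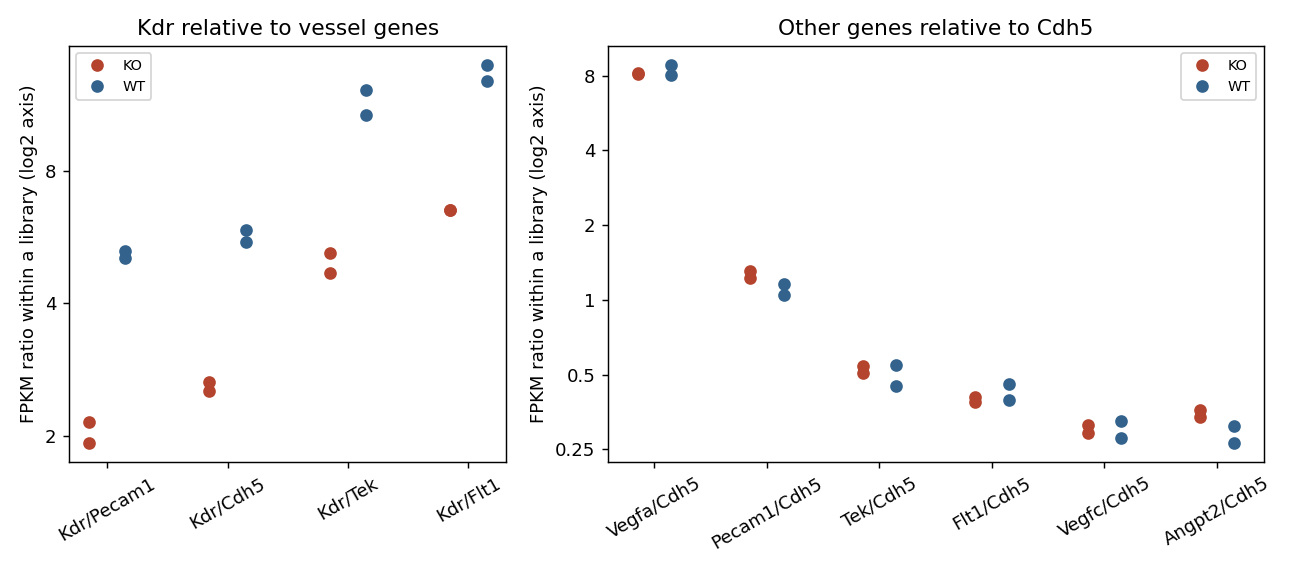
Ratio of FPKM values within a library (y axis, log2 axis) for Kdr against 4 vessel genes (left) and for 6 other genes against Cdh5 (right); each point is a library, KO red and WT blue. The KO points of Kdr lie well below the WT points for each vessel gene, such as 2.65 and 2.53 against 5.50 and 5.87 for Cdh5, whereas the KO points of Vegfa, Tek and Vegfc lie within the WT points.

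Kdr was also set beside genes of retinal progenitors, which are known to express it. Of 15 progenitor genes 10 fell and 2 rose, with a median log2 fold change of −0.40, near the −0.37 of Kdr. The changes ranged from −0.91 to 1.13, and Hes1, Hes5 and Notch1, named after their values were seen, were not called. Whether progenitors account for the fall of Kdr was not tested. Ccnd1, the cyclin D1 gene, averaged 376.5 ± 3.13 FPKM in KO and 707.1 ± 5.55 FPKM in WT (log2 fold change −0.91). The 2 that rose were Sfrp2, a secreted Wnt modulator (1.13), and Sox9 (0.29, named after its value was seen). Pax6 itself was at 68.5% of the WT mean and Lhx2, another regulator of the optic cup, at 75.3%.

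Profiles were compared by distance over the 4 libraries, on log2(FPKM + 1) centred on each gene, among 144 other listed genes that averaged 5 FPKM or more. Nearest to Kdr were the melanosome genes Pmel (distance 0.064), Dct (0.091) and Tyrp1 (0.092), then Lhx2 (0.097) and Hif1a (0.106). Nearest to Cdh5 were Pdgfrb, the receptor gene of pericytes (0.019), Nrp1 (0.052), Ephb4 of veins (0.056), the transcription factor gene Ets1 (0.059) and Eng, a TGF-beta co-receptor of endothelium (0.060). With 2 groups and 4 libraries, such a distance mostly reflects a similar fold change.

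A wider set of endothelial genes rose with the vessel genes described. Of 20 junction and surface genes 18 rose and 1 fell, with a median of 0.64, and their summed level was 397.4 to 404.2 FPKM in KO and 260.3 to 265.8 FPKM in WT. The largest changes among those of at least 5 FPKM were those of Cd34 (0.98), Ramp2, a receptor partner for adrenomedullin (0.96), and Icam2 (0.92). Cd34 alone averaged 78.1 FPKM in KO and 39.0 FPKM in WT, and whole-eye RNA does not show which cells these sums come from. The gene that fell was Jam2 (−0.13, limma adjusted p = 0.0282), and this call was lost with TPM and when any library was left out (adjusted p from 0.0602 to 0.147). Cldn5, a tight junction gene of endothelial barriers, had 16.14 and 17.25 FPKM in the KO libraries and 15.56 and 14.79 FPKM in the WT libraries and did not pass (log2 fold change 0.13, limma adjusted p = 0.0611), though it did with TPM (0.25, adjusted p = 0.00426). Jam2 and Cldn5 were named after their values were seen.

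All 9 tested endothelial transcription factor genes of 10 rose, with a median of 0.65, Tal1 being below the level tested. Over all genes tested 33.5% were called higher. With no filter 10 were tested and 8 were called higher. Most of these genes were low, and with the filter of 5 FPKM in 2 libraries only 3 were tested, which all rose. Sox18, a SOX factor of arterial and lymphatic endothelium (0.95), and Ets1 (0.70) had the largest changes at 5 FPKM or more. The ETS factor genes Erg (5.23 and 5.82 FPKM in KO, 3.13 and 3.30 FPKM in WT) and Fli1 (3.56 and 3.72 FPKM in KO, 1.90 and 2.02 FPKM in WT), named after their values were seen, rose by 0.63 and 0.65 on the log2 scale.

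Genes of arteries, veins and tip cells went both ways. Of 17 genes 16 were tested, 9 rose and 3 fell, with a median of 0.20. Over all genes tested 33.5% were called higher and 21.1% lower, and the 3 falls do not exceed that share. The count of rises was 7 with FPKM rescaled without crystallin and erythroid genes and 7 with median-of-ratios scaling. Pdgfb (0.75), which recruits pericytes, Ephb4 (0.71), the ephrin receptor of veins, and Gja4 (0.70), an arterial connexin gene, rose. The 3 that fell, named after their values were seen, were Cxcr4, a chemokine receptor gene (21.8 ± 0.0495 FPKM in KO, 34.5 ± 0.431 FPKM in WT, −0.64), Efnb2, the arterial ephrin (20.5 ± 0.156 FPKM in KO, 30.8 ± 1.40 FPKM in WT, −0.56), and Dll4, the Notch ligand of tip cells (12.2 ± 0.318 FPKM in KO, 14.4 ± 0.0212 FPKM in WT, −0.22). All 3 are known from the neural retina as well as from vessels. The fall of Dll4 was not past the threshold with TPM (−0.12, adjusted p = 0.071). Efnb2 to Ephb4, a ligand and receptor used to mark arteries and veins, was 0.834 and 0.878 in the KO libraries, against 2.06 and 2.28 in the WT libraries. Whether this ratio in whole eyes reflects arteries and veins was not tested. Gja5 of the same list rose (4.89 ± 0.396 FPKM in KO, 1.46 ± 0.099 FPKM in WT, 1.26), as did Unc5b (0.82) and Apln (0.54). Hey1, Hey2, Jag1 and Esm1 (0.03) were not called, so the fall of Dll4 does not stand for tip cell genes in general. These genes were also named after their values were seen.

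Mural cell genes rose. Of 12 genes 11 rose, with a median of 0.67 and a summed level of 327.6 to 328.1 FPKM in KO and 205.7 to 206.2 FPKM in WT. Anpep (1.12), Abcc9, a potassium channel subunit of pericytes (0.78), and Des (0.78), which skeletal muscle also expresses, had the largest changes at 5 FPKM or more. Vtn, named after its value was seen, averaged 2.55 ± 0.368 FPKM in KO and 1.96 ± 0.0636 FPKM in WT and did not pass (limma adjusted p = 0.0586). Of 5 lymphatic genes 3 rose and 1 fell. Ccl21a (1.65), whose near-identical copies make its value uncertain, rose, and so did Lyve1, which macrophages share (0.85, named after its value was seen). Prox1, a regulator of lymphatic endothelium and also of lens fibres and retina, fell (−1.01).

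The listed genes of VEGF and TIE2 signalling had a smaller median change than the endothelial junction genes. Whole-eye RNA does not separate the cells that express them, so this does not measure signalling in vessels. Of 14 genes 13 were tested, 10 rose and none was called lower, with a median of 0.20. The count of rises was 6 with FPKM rescaled without crystallin and erythroid genes, 6 with median-of-ratios scaling and 5 without KO replicate 1. Tnip2 (0.56), Prkd2, a kinase downstream of VEGFR2 (0.52), and Grb10, an adaptor and imprinted gene (0.50), had the largest changes at 5 FPKM or more. Nos3, the endothelial nitric oxide synthase gene, named after its value was seen, had 3.09 and 2.75 FPKM in the KO libraries and 1.88 and 2.12 FPKM in the WT libraries (0.39, limma adjusted p = 0.00879), a call lost without KO replicate 1 (adjusted p = 0.0682) and without WT replicate 1 (adjusted p = 0.0536).

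Vegfa is a known target of the hypoxia-inducible factors, and genes of that response were listed beside it. Of 12 hypoxia-induced genes 9 rose and 1 fell, with a median of 0.56. The 2 not called, named after their values were seen, were Pgk1 (0.08, limma adjusted p = 0.133) and Car9 (0.32, limma adjusted p = 0.0647). Ddit4 (1.00), Ankrd37 (0.94) and Bnip3 (0.73) had the largest changes at 5 FPKM or more. Adm, the adrenomedullin gene, a vessel-active peptide, had 3.58 and 4.43 FPKM in the KO libraries and 1.21 and 0.90 FPKM in the WT libraries (1.28), while the glucose transporter gene Slc2a1 rose by only 0.17 and Ndrg1 fell (−0.24), all 3 named after their values were seen. Of 8 genes for HIF subunits and oxygen sensing 6 rose and 1 fell, with a median of 0.21. The count of rises was 4, with a median of 0.13, with FPKM rescaled without crystallin and erythroid genes. Hif1a, which encodes the oxygen-sensitive subunit and is controlled mainly at the protein level, fell (51.3 ± 0.544 FPKM in KO, 70.8 ± 1.51 FPKM in WT, −0.46). Egln3, an oxygen sensor gene that HIF itself induces, rose (21.1 ± 0.0990 FPKM in KO, 8.89 ± 0.148 FPKM in WT, 1.16), and Hif3a rose by 0.60.

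**Figure D4:**
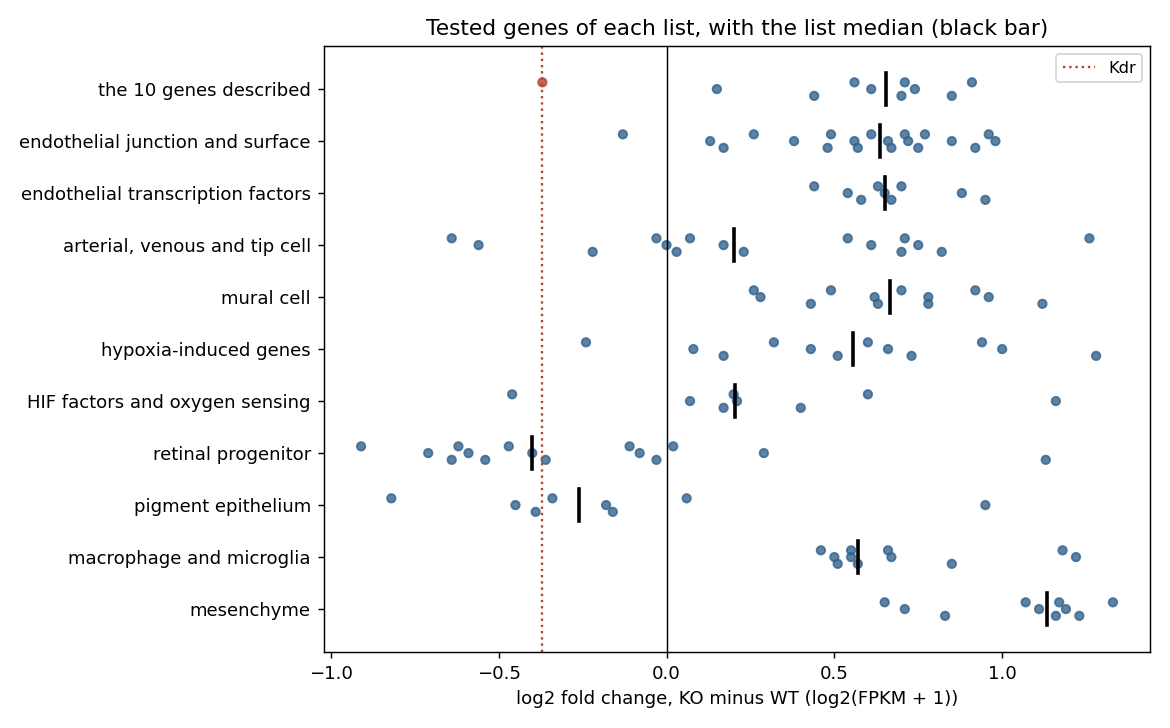
Log2 fold change of log2(FPKM + 1), KO minus WT (x axis), of the tested genes of 11 lists (y axis); points are genes, black bars are list medians and the dotted line marks Kdr. The medians are 0.64 for endothelial junction genes, 0.65 for endothelial transcription factors and 0.67 for mural cells. Those of retinal progenitor genes (−0.40) and pigment epithelium genes (−0.26) lie below 0, as does Kdr.

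Other tissues of the sample moved in the same libraries, and their part in the changes of the vessel genes was not tested. All 10 mesenchyme genes rose, with a median of 1.13 and a summed level of 2977.6 to 2996.6 FPKM in KO and 1341.8 to 1364.0 FPKM in WT, and 7 of 8 skeletal muscle genes rose, with a median of 1.06 and sums of 2444.7 to 2464.8 FPKM in KO and 1169.6 to 1230.0 FPKM in WT. All 11 tested macrophage genes of 12 rose (median 0.57, sums of 119.8 to 128.4 FPKM in KO and 65.6 to 71.6 FPKM in WT), as did 5 of 6 tested erythroid genes of 7 (0.57, 9618.3 to 9942.3 FPKM in KO and 6279.6 to 6737.2 FPKM in WT). The count of erythroid rises was 4 with FPKM rescaled without crystallin and erythroid genes and 4 with median-of-ratios scaling. All 10 lens genes fell (−3.49, sums of 3664.9 to 3703.9 FPKM in KO and 38732.5 to 39187.3 FPKM in WT). Of 10 pigment epithelium genes, markers of a known source of VEGF-A, 8 were tested, 5 fell and 1 rose (−0.26, sums of 376.1 to 378.5 FPKM in KO and 443.0 to 446.0 FPKM in WT), and Rpe65 and Best1 were below the level tested, Rpe65 at most 0.06 FPKM and listed at 0 in a WT library. Of 6 platelet genes, relevant to Pecam1, 3 were tested, 2 rose (1 without KO replicate 1 or without WT replicate 2) and 1 fell, with sums of 23.8 to 24.7 FPKM in KO and 17.9 to 20.0 FPKM in WT. Anp32b, the targeted gene, had 94.53 and 92.67 FPKM in the KO libraries and 163.18 and 179.12 FPKM in the WT libraries (log2 fold change −0.86, limma adjusted p = 1.11e-05). Its listed level was thus reduced and not absent. A value per gene does not show which parts of the transcript were read, so whether an intact transcript remains is not known.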

How the data were processed

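RNA from embryonic eye tissue was sequenced in 2 KO and 2 WT libraries, with groups and numbers from the sample titles. The authors deposited FPKM values per gene and, per the file headers, TPM values, which equal FPKM multiplied by a factor per library. Cufflinks, DESeq, HISAT2 and TopHat are listed in the submitters' processing notes, with no roles, as are the builds GRCm38 and GRCh38. Annotation, filters and strand handling: not given in the sources used here. No counts are in the tables. Spacing of low FPKM values of genes with 1 annotated transcript put the depth at 17760000 to 17980000 fragments, with 57.0% to 63.6% of values within 0.15 of a whole fragment where chance gives 30.0%, so counts were not recovered and these depths are estimates. Replicates differed by more than counting noise (chi-square per gene 1.87 in KO, 1.96 in WT).

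Genes averaging at least 1 FPKM were tested as log2(FPKM + 1), KO against WT, by limma-trend (limma 3.58.1, R 4.3.3) with no covariate, two-sided, with Benjamini-Hochberg adjustment over all 13887 genes. The fit was tested on simulated data with independent noise, which does not test effects shared by libraries. Smaller changes were recovered less often there, so a gene that was not called may still differ. Fold changes on this scale understate those of low genes. Positions come from GENCODE M21 (GRCm38), promoters from RefSeq. No exon of another gene overlapped those of the 10 genes. Alternatives were a pseudocount of 0.1, no filter, at least 5 FPKM in 2 libraries, TPM, rescaling without 19 crystallin and 7 erythroid genes, median-of-ratios scaling, the replicate number as a block and the omission of each library.

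The genes and the 19 lists were chosen with earlier results of these data known. Named genes are the 10, Anp32b, Pax6, all of the small VEGF and TIE lists, the 3 largest called changes at 5 FPKM or more in each other list (not all are printed), and the 5 nearest to Kdr and to Cdh5. Ratios were compared by an exact permutation test written in Python 3.11.15.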

Additional observations from a re-analysis of the deposited data

How the results depend on the processing

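The 10 genes kept their direction and their side of the threshold in 102 of 109 values over 11 alternatives, and no value changed sign, nor did the median of any of the 19 lists. The 7 that lost the call belong to Vegfb and Flt4. Of the 10 genes 9 were tested and called with a filter of 5 FPKM in 2 libraries, which drops Flt4, and 9 were called with FPKM rescaled without crystallin and erythroid genes, where Vegfb was lost. With each library left out in turn 8 to 10 were called, and 5415 to 6225 over all genes, against 7586 with all libraries. With TPM the median of all genes lay 0.12 higher on the log2 scale than with FPKM, and the changes of Vegfb (0.27) and Kdr (−0.25) should be read against that shift. Libraries that share a replicate number did not deviate together across genes (correlation 0.044 over 13887 genes). With 2 libraries in each group this cannot exclude a pairing, and no label says whether the numbers pair the libraries. With the replicate number as a block 7828 genes and all 10 of the genes described were called, and Kdr relative to the vessel genes has no such fit. Depth limits Flt4 and Vegfc most, with counting errors of 8.91% and 8.8% at their lowest values.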
